A study of Mus musculus with 12 samples.

Results

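The cathepsin genes described here are Ctsl, Ctss, Ctsk, Ctsb, Ctsh, Ctsc, Ctsz, Ctso, Ctsd and Ctsa. They were chosen by symbol, as 10 of the 23306 genes in the deposited count table, and all 10 passed the low-count filter that left 14792 genes for testing. Their mRNA was measured by RNA sequencing after sorting thymic stroma of C57 BL6 mice whose Kit ligand (KitL) reporter is tomato, a red fluorescent protein. Kit ligand is a membrane-bound growth factor of early T-cell progenitors. All 4 groups came from such reporter mice and were sorted as lineage-negative, DAPI-negative cells, with 3 libraries each. Tomato+ VEC and tomato- VEC were vascular endothelial cells (EpCAM- CD31+) with and without reporter signal. Tomato+ cTEC were cortical thymic epithelial cells (EpCAM+ CD31- UEA1- Ly51+) with reporter signal, and tomato- mTEC were medullary ones (EpCAM+ CD31- UEA1+ Ly51-) without it. In the epithelium the reporter and the gate therefore changed together and cannot be told apart. The labels used here give no age, sex or number of animals, so a p-value here speaks of the spread among these libraries, which may be technical.

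Cathepsins are proteases of the endosome and lysosome, made as inactive precursors and activated in acid compartments. Most are cysteine proteases of the papain family, Ctsd encodes an aspartic protease and Ctsa a serine carboxypeptidase. In antigen-presenting cells they cut proteins into peptides for MHC class II and degrade the invariant chain (Cd74) that blocks the class II groove. In mouse thymus cathepsin L is known for this task in cortical epithelium, where CD4 T cells are positively selected, and cathepsin S for the same step in dendritic cells and B cells.

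Total counts were 8388869 to 11807130 per library. The sorted populations carried their defining genes: 8 endothelial markers summed to 3189 to 4114 RPKM (reads per kilobase of transcript, scaled to the library total) in VEC, and 7 epithelial markers to 2191 to 3185 RPKM in TEC. Epithelial markers summed to at most 0.933 RPKM in VEC. Endothelial markers reached 185 RPKM in tomato+ cTEC replicate 2 and 24.4 RPKM at most in the other TEC libraries. A list of 15 macrophage and dendritic cell markers summed to 20.3 to 53.8 RPKM in tomato+ VEC and 18.4 to 113 in tomato- VEC, and to 12.6 to 176 in tomato+ cTEC and 419 to 481 in tomato- mTEC, where 13 or 14 of the 15 had a count. Most of the mTEC sum was Lyz2, the lysozyme gene, at 306 to 399 RPKM, and the rest came from the other markers with a count. Ptprc, which encodes the leukocyte marker CD45, stood at 0 to 1.52 RPKM there. Of the 11 macrophage and dendritic markers tested, 4 were lower in tomato+ VEC and 4 in tomato- VEC than in tomato- mTEC (edgeR). Of all genes 19.4% and 16.9% were lower in these comparisons. None of the 11 was higher there, and none was called between tomato+ cTEC and tomato- mTEC. The part of these cells in the cathepsin values below was not tested, and in sorted bulk samples more cells of a type cannot be told apart from more RNA per cell.

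Cathepsin L mRNA made up most of the family in cortical epithelium and in reporter-negative endothelium. Summed over the 10 genes, the level was 1037 ± 155 RPKM in tomato+ VEC against 4074 ± 531 RPKM in tomato- VEC, and 4497 ± 582 RPKM in tomato+ cTEC against 2177 ± 285 RPKM in tomato- mTEC (SD, n = 3 each). Ctsl alone gave 45.2% ± 2.85 of this sum in tomato+ VEC and 67.1% ± 4.44 in tomato- VEC, and 89.9% ± 1.61 in tomato+ cTEC and 43.1% ± 14.8 in tomato- mTEC (SD, n = 3 each). In tomato- mTEC the rest was spread over Ctss (18.1% ± 6.57), Ctsz (14.0% ± 4.59) and Ctsh (11.8% ± 3.88). In tomato+ VEC it was spread over Ctsb (14.7% ± 2.04), Ctsd (14.1% ± 2.53) and Ctsz (12.5% ± 4.06; SD, n = 3 each). Without Ctsl the other 9 genes summed to 466 to 672 RPKM in tomato+ VEC against 1144 to 1703 RPKM in tomato- VEC, and to 426 to 461 RPKM in tomato+ cTEC against 993 to 1356 RPKM in tomato- mTEC. Cortical epithelium was thus high in cathepsin mRNA through Ctsl, and its other cathepsins together were below those of every tomato+ VEC library.

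**Figure D1:**
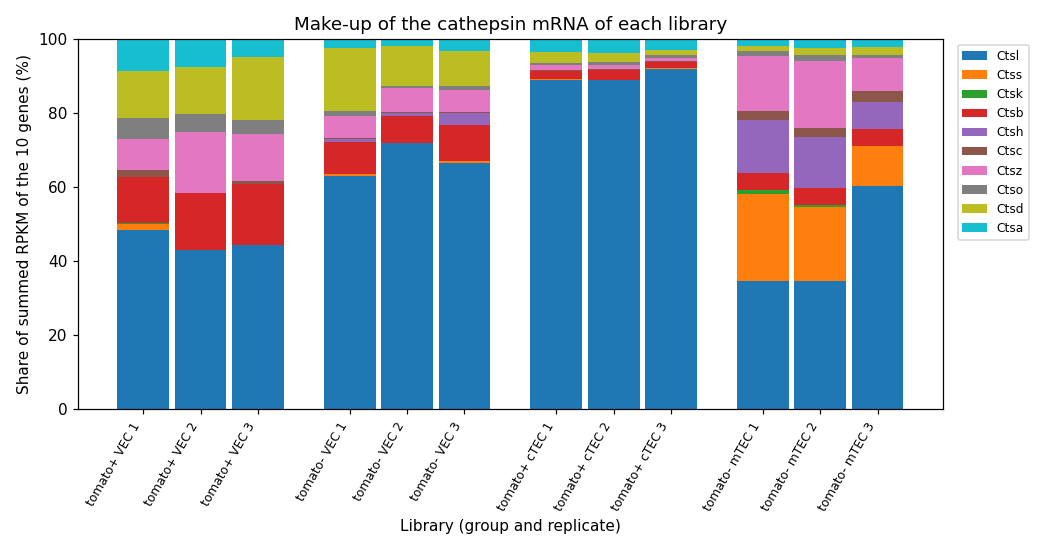
Stacked bars give each gene's share (%) of the summed RPKM of the 10 cathepsin genes in each of the 12 libraries, by group and replicate. Ctsl takes 88.9% to 91.8% of the bar in tomato+ cTEC, and Ctss, Ctsh and Ctsz take large shares in the tomato- mTEC libraries.

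Ctsl encodes the endopeptidase cathepsin L. It was at 437, 430.1 and 534 RPKM in the tomato+ VEC libraries, against 2906, 2921 and 2355 RPKM in tomato- VEC. It was at 3729, 3676 and 4742 RPKM in tomato+ cTEC, against 679, 715 and 1506 RPKM in tomato- mTEC. The 4 groups did not overlap, and the order from high to low was tomato+ cTEC, tomato- VEC, tomato- mTEC, tomato+ VEC. In tomato- VEC and tomato+ cTEC libraries Ctsl ranked between 8 and 13 among all genes by RPKM, and in tomato+ VEC between 121 and 154. Ctsl fell in tomato+ VEC relative to tomato- VEC by log2 -2.49 (SE 0.29, 5.61-fold lower, edgeR adjusted p = 0.00116) and rose in tomato+ cTEC relative to tomato- mTEC by log2 1.99 (SE 0.29, 3.99-fold, edgeR adjusted p = 0.00198). Both calls held when any library was left out. The top neighbours in the order, tomato- VEC and tomato+ cTEC, differed by log2 -0.34 (SE 0.28, 95% interval -0.94 to 0.27), which did not pass (edgeR adjusted p = 0.475). The lowest neighbours, tomato+ VEC and tomato- mTEC, differed by log2 -0.83 (SE 0.28, edgeR adjusted p = 0.0408), a call that held only without tomato- mTEC replicate 1 (edgeR adjusted p = 0.0268) or replicate 2 (0.041) and otherwise lay between 0.056 and 0.29 when any 1 library was left out. Within tomato- mTEC, replicate 3 stood apart at 1506 RPKM, and the same library had the highest sum of 4 cortical markers of its group. That sum was 640 to 874 RPKM in tomato+ cTEC, and in tomato- mTEC it was 30.1 RPKM in replicate 3 and 18.3 and 14.9 RPKM in replicates 1 and 2. The part of cortical cells in that library's Ctsl was not tested.

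Ctss, which encodes cathepsin S, was high in medullary epithelium. It was at 8.98, 2.17 and 19.5 RPKM in tomato+ cTEC, against 461, 413 and 269 RPKM in tomato- mTEC. Endothelial libraries held 15.1, 0 and 0 RPKM in tomato+ VEC and 15.7, 0.0733 and 19.9 RPKM in tomato- VEC. Every mTEC library was thus above every library of the other groups, which overlapped one another. In each of the 3 low groups the libraries differed several-fold, and the fitted errors were wide. The tomato+ cTEC against tomato- mTEC difference was log2 -5.28 (SE 1.82, 95% interval -9.25 to -1.31), short of the threshold (edgeR adjusted p = 0.108). It passed with the 6 epithelial libraries alone in the fit (edgeR adjusted p = 0.00301), by limma-trend (0.0081) and without tomato+ VEC replicate 1 (0.0354), the library with 221 Ctss counts where the other 2 of its group had none. The tomato- VEC against tomato- mTEC difference was log2 -4.85 (SE 1.79) and missed the threshold too (edgeR adjusted p = 0.0632), but passed without any 1 of the tomato+ VEC libraries (0.0179 to 0.0416), by DESeq2 (0.0495), without the low-count filter (0.0435), by limma-trend (0.0031) and with only the 6 libraries compared (0.0164). The tomato+ VEC against tomato- mTEC difference passed (log2 -5.99, SE 1.89, edgeR adjusted p = 0.0301), and was lost without tomato+ VEC replicate 2 or 3 or tomato- mTEC replicate 1 or 2 (0.0597 to 0.0669). Without tomato+ VEC replicate 1, Ctss also passed in the contrast of tomato+ VEC and tomato+ cTEC (edgeR adjusted p = 0.0356), and between all VEC and all TEC (0.00372), as it did not with all libraries (0.807 and 0.0825). By limma-trend it passed between all VEC and all TEC with all libraries (adjusted p = 0.00382). Ctss is also abundant in macrophages and dendritic cells, whose marker sum given above was highest in the same 3 mTEC libraries.

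Ctsk, the collagen-degrading cathepsin K of osteoclasts, was low in both VEC groups and in tomato+ cTEC, and had its highest mean in tomato- mTEC. Tomato+ cTEC held 0.207, 0.737 and 1.40 RPKM, against 22.4, 11.5 and 2.86 RPKM in tomato- mTEC. Levels were 0.395 to 0.813 RPKM in tomato+ VEC and 0.470 to 5.19 RPKM in tomato- VEC, so that mTEC replicate 3 lay within the tomato- VEC range. The tomato+ cTEC against tomato- mTEC difference stood at log2 -4.01 (SE 1.29) and missed the threshold (edgeR adjusted p = 0.0832), and it passed with the 6 epithelial libraries alone (edgeR adjusted p = 0.0296), by DESeq2 (0.00244) and by limma-trend (0.0188). The tomato- VEC against tomato- mTEC difference passed without tomato- VEC replicate 3 (edgeR, adjusted p = 0.0448) but not with it (0.163). With all libraries it passed by DESeq2 (adjusted p = 0.0484) and by limma-trend (0.0313). In RefSeq's GRCm38.p6 annotation Ctsk and Ctss are direct neighbours on chromosome 3.

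Ctsh encodes cathepsin H, an aminopeptidase, and its group means spanned the widest fold of the family. It was at 0.171, 0.511 and 0.180 RPKM in tomato+ VEC (13 counts in all), against 37.5, 34.9 and 111 RPKM in tomato- VEC (2808 counts). It was at 2.15, 2.22 and 7.39 RPKM in tomato+ cTEC, against 281, 285 and 184 RPKM in tomato- mTEC. None of the 4 groups overlapped, and both tomato+ populations were below both tomato- populations. Ctsh fell in tomato+ VEC by log2 -7.66 (SE 0.78, 202-fold, edgeR adjusted p = 0.0004) and in tomato+ cTEC by log2 -6.05 (SE 0.69, 66.4-fold, edgeR adjusted p = 0.000485), and both calls held when any library was left out. All 3 steps of the order tomato- mTEC, tomato- VEC, tomato+ cTEC, tomato+ VEC passed (edgeR adjusted p = 0.0262, 0.00067 and 0.0038), although the first was lost without tomato- VEC replicate 1 or 2 or tomato- mTEC replicate 1 or 2 (0.0749 to 0.102). Ccl21a, a chemokine gene of the medullary marker list, ran in the same order within endothelium, at 0.818 to 2.67 RPKM in tomato+ VEC against 87.4 to 299 RPKM in tomato- VEC, where epithelial markers summed to at most 0.789 RPKM and Aire to at most 0.0502 RPKM. Of the 5 medullary markers, Ccl21a alone was called between the VEC groups (edgeR), where 1.08% of all genes were lower. The others did not pass, with log2 0.06 for Ccl19, 2.77 for Cldn4, -0.62 for Tnfrsf11a and -1.96 for Aire. For Ctsh, the size of the VEC contrast and of the TEC contrast differed by log2 -1.61 (SE 0.88, edgeR adjusted p = 0.386), which did not pass.

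Ctsc encodes cathepsin C, the dipeptidyl peptidase that activates serine proteases of leukocyte granules. Tomato+ VEC held 16.4, 0.718 and 8.71 RPKM and tomato- VEC 7.32, 7.12 and 11.0 RPKM. Tomato+ cTEC held 3.57, 8.44 and 9.71 RPKM, against 45.8, 49.7 and 69.4 RPKM in tomato- mTEC. The mTEC libraries were above all 9 others, and in ratio tomato+ VEC ranged most widely. Ctsc fell in tomato+ cTEC relative to tomato- mTEC by log2 -2.99 (SE 0.82, edgeR adjusted p = 0.0445), a call that held only without tomato+ VEC replicate 1 (0.0323) or replicate 2 (0.00415), and otherwise lay between 0.0547 and 0.154 when any 1 library was left out. It was also lower in tomato- VEC than in medulla, by log2 -2.54 (SE 0.80, edgeR adjusted p = 0.0331), a call lost without any 1 of the 6 libraries compared (0.0601 to 0.1).

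Ctsz encodes cathepsin Z (also called X), a carboxypeptidase. It was at 56.0, 47.5 and 46.2 RPKM in tomato+ cTEC, against 291, 375 and 226 RPKM in tomato- mTEC. Endothelial levels were 75.5, 165 and 153 RPKM in tomato+ VEC, against 280.2, 273 and 208.5 RPKM in tomato- VEC. Cortical epithelium was below every other library, and the tomato- VEC and tomato- mTEC libraries overlapped (log2 -0.07, SE 0.30, 95% interval -0.73 to 0.59, edgeR adjusted p = 0.904). Ctsz fell in tomato+ cTEC by log2 -2.66 (SE 0.32, 6.30-fold, edgeR adjusted p = 0.000612) in every leave-out. In tomato+ VEC the 3 libraries were below the 3 of tomato- VEC, by log2 -0.90 (SE 0.30), without passing (edgeR adjusted p = 0.169).

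Ctsb encodes cathepsin B, which acts both as an endopeptidase and as a dipeptidyl carboxypeptidase. Its highest levels were in endothelium, with 112, 153 and 198 RPKM in tomato+ VEC, against 408, 294 and 342 RPKM in tomato- VEC. The epithelial groups overlapped, with 90.5, 106 and 76.3 RPKM in tomato+ cTEC and 88.5, 98.1 and 115 RPKM in tomato- mTEC. Ctsb fell in tomato+ VEC by log2 -1.11 (SE 0.24, 2.16-fold, edgeR adjusted p = 0.0369), but the call held only without tomato+ VEC replicate 3 (0.0186), tomato- VEC replicate 2 (0.0482) or tomato+ cTEC replicate 2 (0.0444), and otherwise lay between 0.0518 and 0.129. Its cTEC against mTEC difference was log2 -0.22 (SE 0.23, 95% interval -0.73 to 0.29, edgeR adjusted p = 0.709).

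Ctso encodes a cysteine cathepsin whose substrates are less well described, and it varied least between groups. It was at 52.7, 49.7 and 48.5 RPKM in tomato+ VEC and at 62.3, 16.5 and 41.7 RPKM in tomato- VEC. Epithelial libraries held 28.3, 33.9 and 33.7 RPKM in tomato+ cTEC and 27.6, 31.2 and 18.9 RPKM in tomato- mTEC. Neighbouring groups overlapped throughout. The VEC contrast (log2 0.38, SE 0.39) and the TEC contrast (log2 0.23, SE 0.39) did not pass (edgeR adjusted p = 0.686 and 0.851).

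Ctsd encodes cathepsin D, the main aspartic protease of lysosomes. It was at 114, 126 and 205 RPKM in tomato+ VEC, against 776, 442 and 339 RPKM in tomato- VEC. It was at 117, 100.3 and 74.6 RPKM in tomato+ cTEC, against 23.8, 43.0 and 52.9 RPKM in tomato- mTEC. The groups of each pair did not overlap, but they lay in opposite directions. Ctsd fell in tomato+ VEC by log2 -1.76 (SE 0.39, 3.39-fold, edgeR adjusted p = 0.0455), a call that held only without tomato+ VEC replicate 3 (0.0345), tomato- VEC replicate 3 (0.0327) or tomato- mTEC replicate 1 (0.0408), and otherwise lay between 0.0594 and 0.148. Tomato- VEC replicate 1, the highest for Ctsd and Ctsb, also had the highest sum of 5 platelet and red cell markers. That sum was 1.99 to 11.0 RPKM in tomato+ VEC, against 194, 0.89 and 0.765 RPKM in tomato- VEC replicates 1, 2 and 3, and the part of such cells was not tested. The tomato+ cTEC against tomato- mTEC difference was log2 1.20 (SE 0.39), short of the threshold (edgeR adjusted p = 0.0825), although it passed with the 6 epithelial libraries alone (edgeR adjusted p = 0.039) and by limma-trend (0.0258).

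Ctsa encodes cathepsin A, the carboxypeptidase that also protects lysosomal beta-galactosidase and neuraminidase from degradation. It was at 154, 156 and 157 RPKM in tomato+ cTEC, against 40.3, 49.1 and 55.1 RPKM in tomato- mTEC, and cortical libraries were above all others. Endothelial levels overlapped, with 78.6, 76.0 and 58.2 RPKM in tomato+ VEC and 116, 76.2 and 112.5 RPKM in tomato- VEC. Ctsa rose in tomato+ cTEC by log2 1.62 (SE 0.23, 3.07-fold, edgeR adjusted p = 0.00172) in every leave-out, and did not pass between the endothelial groups (log2 -0.45, SE 0.22, edgeR adjusted p = 0.352). In a later annotation (GENCODE M21) exons of Ctsa overlap exons of Pltp and Neurl2 on the opposite strand, and the library kit does not mark strand. Pltp stood at 591 to 812 RPKM in tomato+ cTEC against 80.8 to 131 RPKM in tomato- mTEC, and Neurl2 at 9.17 to 18.4 RPKM in tomato+ cTEC against 0.269 to 2.34 RPKM in tomato- mTEC. The part of Pltp or Neurl2 reads in the Ctsa counts was not tested. In the same annotation exons of Ctsb overlap Fdft1 and those of Ctsz overlap Nelfcd on the opposite strand, and exons of Ctsl and Ctsd overlap predicted genes. Fdft1 averaged 16.5 RPKM in tomato+ VEC and 15.2 RPKM in tomato- VEC, below Ctsb in every library of those groups. In tomato+ cTEC it averaged 34.3 RPKM against 90.9 RPKM for Ctsb, and in tomato- mTEC 23.0 RPKM against 100 RPKM. The part of Fdft1 reads in Ctsb and of Nelfcd reads in Ctsz was not tested.

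**Figure D2:**
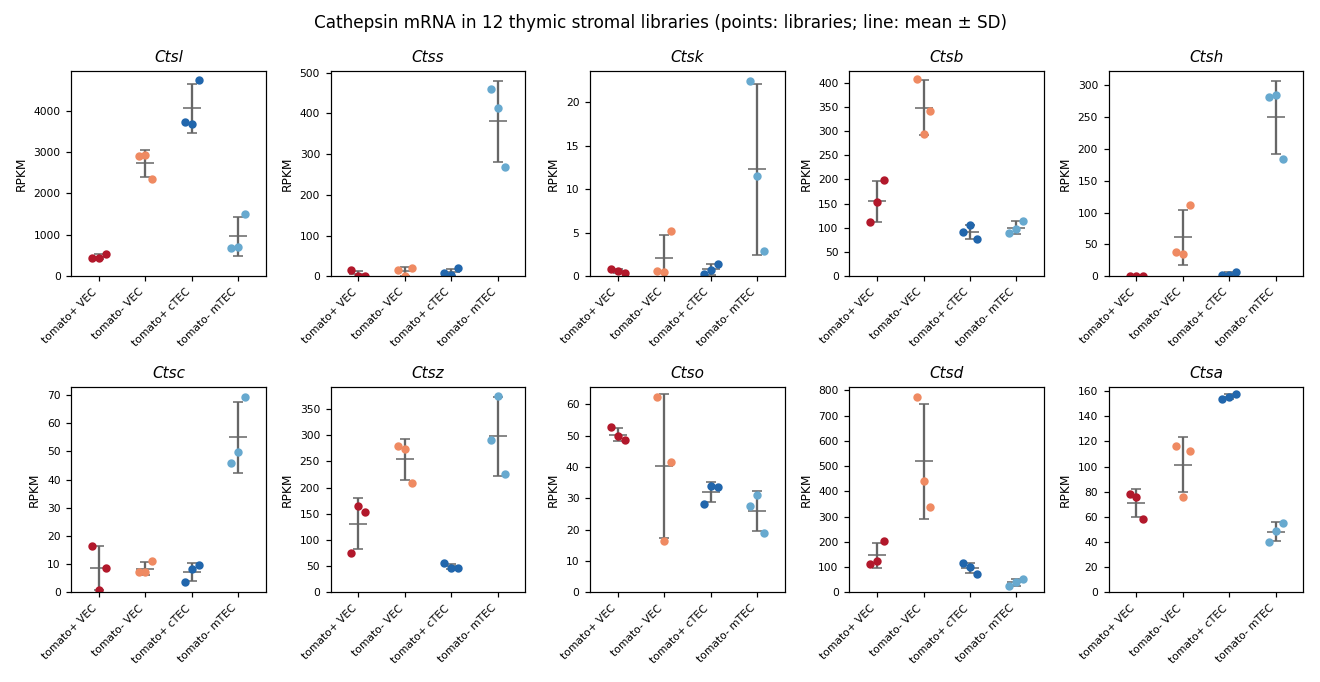
RPKM of each of the 10 cathepsin genes (linear axes from 0, a scale per gene) in the 4 groups. Points are libraries and lines the mean ± SD of 3. Ctsl is high in tomato+ cTEC and tomato- VEC, whereas Ctss, Ctsk, Ctsh and Ctsc have their highest means in tomato- mTEC.

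The promoters of members with contrasting levels are shown for their sequence. RefSeq's table for GRCm38.p6 held a promoter for 8 of the 10 genes, 9 promoters in all, and not for Ctsb and Ctsh. The 250 bases before the start of transcription were searched for CACGTG, the core of the element through which TFEB, a regulator of lysosomal genes, is known to act, and for the core of interferon-stimulated response elements, taken as GAAA, any 2 bases and GAAA. Both strands were searched, and CACGTG reads the same on either. CACGTG was in 3 of the 9 member promoters, those of Ctsl, Ctsd and Ctsa, and in 6.02% of all 32851 promoters. The interferon element was in 1 of the 9, that of Ctss, and in 2.98% of all promoters. The matched letters are in capitals, 5′ to 3′ on the gene's strand. Ctsl, the most abundant cathepsin in cortex, is at chr13:64370521-64370770 (- strand), with CACGTG beginning 236 bases before the start.
Ctsl: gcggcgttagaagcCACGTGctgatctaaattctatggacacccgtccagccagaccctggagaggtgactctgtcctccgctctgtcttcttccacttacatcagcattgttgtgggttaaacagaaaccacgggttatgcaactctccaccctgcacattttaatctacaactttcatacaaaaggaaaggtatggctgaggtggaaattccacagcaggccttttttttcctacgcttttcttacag
Ctsd, on the - strand of chr7:142387828-142388077, is shown because it holds the hexamer at 245 and again at 98 bases before the start.
Ctsd: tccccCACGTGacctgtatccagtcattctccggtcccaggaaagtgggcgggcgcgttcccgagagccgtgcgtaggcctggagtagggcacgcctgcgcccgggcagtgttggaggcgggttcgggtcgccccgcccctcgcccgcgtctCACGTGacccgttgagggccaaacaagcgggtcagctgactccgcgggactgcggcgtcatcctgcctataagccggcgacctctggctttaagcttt
Ctsa has 2 annotated starts. The one at chr2:164833523-164833772 (+ strand) has CACGTG beginning 12 bases before it, and the other has neither motif.
Ctsa: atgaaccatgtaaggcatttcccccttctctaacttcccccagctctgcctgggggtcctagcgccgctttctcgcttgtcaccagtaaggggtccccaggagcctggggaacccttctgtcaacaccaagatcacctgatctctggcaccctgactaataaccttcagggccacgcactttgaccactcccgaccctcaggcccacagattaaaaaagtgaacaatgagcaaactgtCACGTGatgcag
Ctss, on the + strand of chr3:95526536-95526785, is shown as a member with its highest level in medulla and without the hexamer, with the interferon element beginning 21 bases before the start.
Ctss: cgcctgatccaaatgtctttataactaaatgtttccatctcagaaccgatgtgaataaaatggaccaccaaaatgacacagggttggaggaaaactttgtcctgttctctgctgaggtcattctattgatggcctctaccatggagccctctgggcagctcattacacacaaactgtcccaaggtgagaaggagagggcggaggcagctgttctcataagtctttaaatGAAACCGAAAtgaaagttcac
A match describes these letters and shows no binding, and binding was not measured here.

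Within endothelium, the cathepsins that changed were all lower in reporter-positive cells. Of the 10 members 4 fell in tomato+ VEC (Ctsl, Ctsh, Ctsb and Ctsd) and none rose, while among all 14792 genes 1.08% fell and 0.568% rose. In either direction that was 1.65% of all genes. The other 6 members did not pass. The median log2 difference of the members was -1.13, against 0.00 over all genes. When the fit held the 6 endothelial libraries alone, Ctsl and Ctsh passed and Ctsb and Ctsd did not. The macrophage and dendritic marker sums of the groups overlapped, at 44.8, 53.8 and 20.3 RPKM in tomato+ VEC against 113, 102 and 18.4 RPKM in tomato- VEC, with 5 to 7 of the 15 genes counted in a library. None of the 11 tested was called (edgeR), and 2 had an unadjusted p under 0.05, C1qa on the lower and Csf1r on the higher side in tomato+ VEC. The part of such cells was not tested.

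Between cortex and medulla the family split. In tomato+ cTEC 2 members rose (Ctsl and Ctsa) and 3 fell (Ctsh, Ctsz and Ctsc), against 2.73% of all genes higher, 5.1% lower and 7.83% in either direction. Ctss, Ctsk, Ctsb, Ctso and Ctsd did not pass. With the 6 epithelial libraries alone in the fit 8 members passed, Ctss, Ctsk and Ctsd joining the 5, and 2487 genes passed in all, against 1158 with all libraries. The median of the members was log2 -1.44, against 0.02 over all genes. The marker sum of macrophages and dendritic cells was lower in tomato+ cTEC, as Ctsh, Ctsc and Ctsz were, at 12.6 to 176 RPKM in tomato+ cTEC against 419 to 481 RPKM in tomato- mTEC. None of the 11 such markers tested was called in this contrast (edgeR), and 3 had an unadjusted p under 0.05, all lower in tomato+ cTEC. Tomato+ cTEC replicate 3, which had the highest sum of its group (176 RPKM, of which Lyz2 gave 146 RPKM), had the highest Ctss, Ctsh, Ctsk and Ctsc of its group but the lowest Ctsz. Tomato- mTEC replicate 3, which had the highest sum of its group (481 RPKM), had the highest Ctsc but the lowest Ctss, Ctsh, Ctsz and Ctsk. The sum of 6 mesenchymal markers was higher in tomato+ cTEC, as Ctsl and Ctsa were, at 919 to 1243 RPKM in tomato+ cTEC against 69.2 to 223 RPKM in tomato- mTEC, most of it Dcn, the decorin gene (902 to 1219 RPKM against 63.0 to 207 RPKM). So was the sum of 8 thymocyte markers, at 24.0 to 40.5 RPKM in tomato+ cTEC against at most 14.9 RPKM in tomato- mTEC, of which 2 of 7 tested were called higher. The part of these cell types was not tested.

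The VEC contrast minus the TEC contrast passed for 4 of the 10 members (Ctsl, Ctsd, Ctsa and Ctsz). Of all genes 3.08% passed, 1.54% higher and 1.54% lower. The TEC contrast also changes the gate, so reporter and gate cannot be told apart in this difference. The Ctsz call (edgeR adjusted p = 0.0486) held without tomato+ VEC replicate 1 (0.0128) and was lost in the other 11 leave-outs. Ctsl differed by log2 -4.48 (SE 0.41, edgeR adjusted p = 0.000286). Ctsb, Ctsh, Ctss, Ctsk, Ctsc and Ctso did not pass. In edgeR, Ctsc passed without tomato+ VEC replicate 2 (adjusted p = 0.0176) and not with it (0.152). By DESeq2 it passed with all libraries (adjusted p = 0.0463).

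**Figure D3:**
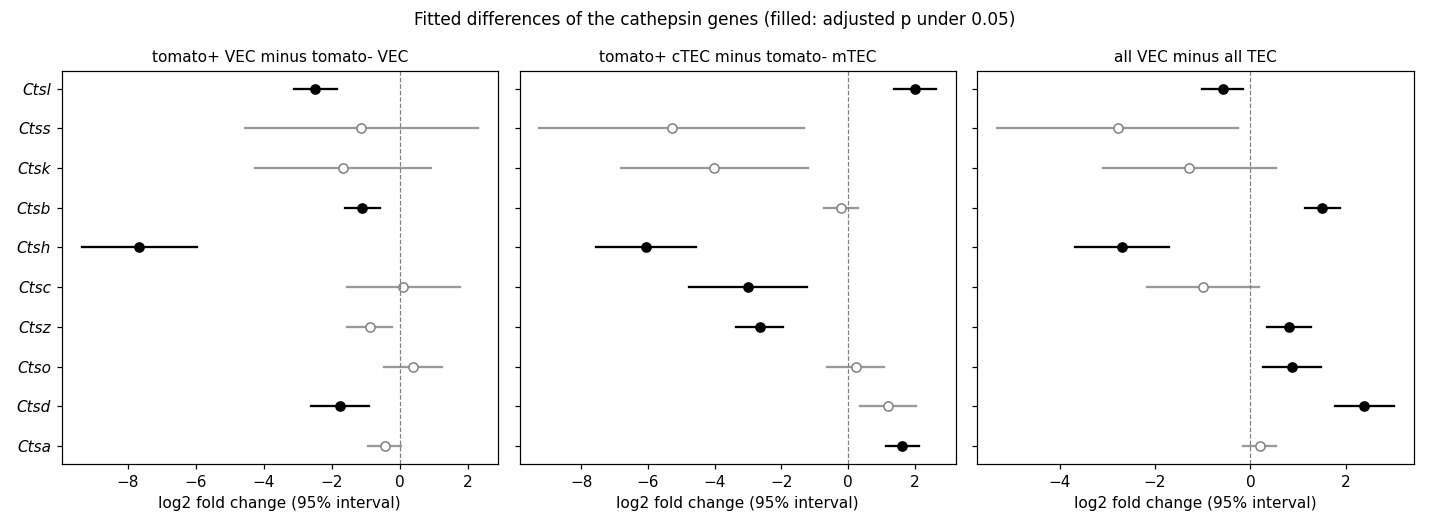
Fitted log2 fold changes (points) with 95% intervals (lines) for the 10 cathepsin genes in the contrasts of tomato+ VEC minus tomato- VEC, tomato+ cTEC minus tomato- mTEC and all VEC minus all TEC. Filled points passed at an adjusted p under 0.05. Ctsl lies left of 0 in the first panel and right of 0 in the second.

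Between the reporter-positive populations, tomato+ VEC had more Ctsb and Ctsz mRNA than tomato+ cTEC, and less of Ctsl, Ctsh and Ctsa. These 5 of 10 compare with 21.9% of all genes, 9.45% higher and 12.4% lower. Ctsl fell by log2 -2.82 (SE 0.30, edgeR adjusted p = 4.16e-05) and Ctsh by -3.50 (SE 0.71, edgeR adjusted p = 0.0038), while Ctsb rose by 1.06 (SE 0.24, edgeR adjusted p = 0.00686) and Ctsz by 1.69 (SE 0.31, edgeR adjusted p = 0.00217). Ctsa fell by log2 -0.84 (SE 0.22, edgeR adjusted p = 0.019), a call lost without tomato+ VEC replicate 2 or 3 or any 1 cTEC library (0.057 to 0.091) and without the low-count filter (0.0533), and Ctsh was lost with only these 6 libraries in the fit (0.0539). Ctso passed there without tomato- VEC replicate 2 (edgeR, adjusted p = 0.0185) or with only these 6 libraries in the fit (0.0215), but not with all libraries (0.11). Between tomato- VEC and tomato- mTEC, Ctso passed without tomato- VEC replicate 2 but not with it (edgeR, adjusted p = 0.0196 against 0.167).

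Between the reporter-negative populations, tomato- VEC exceeded tomato- mTEC in 4 members (Ctsl, Ctsb, Ctsd and Ctsa) and fell short in 2 (Ctsh and Ctsc), against 27.5% of all genes called, 10.6% higher and 16.9% lower. Ctsd had the largest difference of the 4, log2 3.87 (SE 0.43, 14.6-fold, edgeR adjusted p = 5.44e-05). Ctsb followed with log2 1.95 (SE 0.24, edgeR adjusted p = 0.000129), Ctsl with 1.66 (SE 0.29, edgeR adjusted p = 0.00128) and Ctsa with 1.23 (SE 0.23, edgeR adjusted p = 0.00201).

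Averaged over both groups of each lineage, endothelium carried more Ctsd, Ctsb, Ctso and Ctsz, and less Ctsh and Ctsl, than epithelium. The epithelial average thus joined cortex and medulla. These 6 of 10 members passed, against 36.3% of all genes, 14.4% higher and 21.8% lower. Ctsd, Ctsb and Ctso had the same sign in every VEC against TEC pair, but single pairs reversed the others. For Ctsz, log2 was -0.97 in tomato+ VEC and -0.07 in tomato- VEC, each minus tomato- mTEC. Tomato- VEC minus tomato+ cTEC was log2 4.16 for Ctsh, and tomato- VEC minus tomato- mTEC was log2 1.66 for Ctsl. Every other pair of Ctsz, Ctsh and Ctsl kept the sign of the average. In the average, Ctsd was higher by log2 2.39 (SE 0.28, edgeR adjusted p = 4.13e-05). Ctsb was higher by log2 1.51 (SE 0.17, edgeR adjusted p = 2.69e-05). Ctsh was lower by log2 -2.70 (SE 0.45, edgeR adjusted p = 0.00061). The Ctsl difference was small (log2 -0.58, SE 0.20, edgeR adjusted p = 0.0368) and held only without tomato- mTEC replicate 1 (0.0212) or replicate 2 (0.0335), otherwise lying between 0.0507 and 0.11. That of Ctso (log2 0.87, SE 0.28, edgeR adjusted p = 0.0279) was lost without tomato- VEC replicate 1 (0.0619), tomato+ cTEC replicate 1 (0.0517) or tomato- mTEC replicate 3 (0.0589), with relative log expression scaling (edgeR adjusted p = 0.0592) and by DESeq2 (adjusted p = 0.0523). In the remaining pairs, all 10 members passed between tomato+ VEC and tomato- mTEC, where 31.8% of all genes did (12.4% higher, 19.4% lower), but fewer when a library was left out. The number was 5, 6 and 5 without tomato+ VEC replicates 1, 2 and 3, it was 3, 5 and 7 without tomato- mTEC replicates 1, 2 and 3, and it was 9 without any 1 of the other 6 libraries. Between tomato- VEC and tomato+ cTEC 4 members were higher (Ctsb, Ctsh, Ctsz and Ctsd) and none was lower, against 8.63% and 10.6% of all genes (19.2% together), and the same 4 passed in every leave-out. Ctsb, Ctsh, Ctsz and Ctsd had log2 2.17, 4.16, 2.59 and 2.67 there (SE 0.24, 0.63, 0.32 and 0.40). Of 11 macrophage and dendritic markers tested, 6 were lower in all VEC than in all TEC and 0 higher (edgeR). Against tomato- mTEC, 4 were lower in tomato+ VEC and 4 in tomato- VEC, and against tomato+ cTEC 1 in each. The shares of all genes called lower in these comparisons are those given above. The part of such cells in the cathepsin differences was not tested.

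Other cathepsin genes were scarce. Of 13 such symbols only Ctse and Ctsf passed the low-count filter. Ctse, an aspartic protease of the endosome, was at most 0.628 RPKM in the VEC and tomato+ cTEC libraries and at 4.25, 35.8 and 1.68 RPKM in tomato- mTEC, lower in tomato- VEC than in tomato- mTEC (edgeR adjusted p = 0.0113) and not called in the TEC contrast. Ctsf, the gene of cathepsin F, was at 9.35 to 13.7 RPKM in tomato+ cTEC and 4.47 to 10.9 RPKM in tomato- mTEC and was not called in any of the 5 main comparisons. The placental cathepsin genes of the mouse (Ctsj, Ctsm, Ctsq, Ctsr, Cts3, Cts6, Cts7 and Cts8), which resemble Ctsl, were at 0.260 RPKM or less in every library.

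Inhibitors of cysteine cathepsins had their own distribution. Of 16 listed genes 6 were tested. Cst3, the secreted inhibitor cystatin C, was at 3222, 3057 and 2134 RPKM in tomato+ VEC, 1152, 1738 and 1027 RPKM in tomato- VEC, 1261, 1584 and 1055 RPKM in tomato+ cTEC and 637, 534 and 846 RPKM in tomato- mTEC. It was highest in tomato+ VEC, where Ctsl was lowest, but lowest in tomato- mTEC, where Ctsl was next lowest. The Cst3 difference between all VEC and all TEC passed (log2 1.27, edgeR adjusted p = 0.000284). That between the VEC groups did not (log2 1.16, edgeR adjusted p = 0.0548). Cstb, the cytosolic inhibitor stefin B, was at 131 to 194 RPKM in tomato+ VEC and 218 to 265 RPKM in tomato- VEC, and at 1791 to 2468 RPKM in tomato+ cTEC and 799.6 to 987 RPKM in tomato- mTEC. Cstb rose in cTEC relative to mTEC (log2 1.26, edgeR adjusted p = 0.00558) as did no other inhibitor tested, while Serpina3g, a serpin that inhibits cathepsins in mouse, fell (log2 -2.81, edgeR adjusted p = 0.0442). Ctla2a, which resembles a cathepsin propeptide and inhibits cathepsin L in mouse, was an endothelial gene at 580 to 635 RPKM in tomato+ VEC and 1798 to 1921 RPKM in tomato- VEC, against at most 10.1 RPKM in TEC. Ctla2a and its close copy Ctla2b may share reads. In the VEC contrast 0 of 6 inhibitors were called (edgeR), against 1.65% of all genes, and 4 had an unadjusted p under 0.05.

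The class II processing partners separated epithelium from endothelium. Of 13 genes 11 were lower in all VEC than in all TEC (median log2 -5.93, against -0.18 over all genes) and 1, Lgmn, was higher (log2 1.69, edgeR adjusted p = 0.00167), against 21.8% of all genes lower and 14.4% higher. Lgmn encodes the asparagine endopeptidase legumain, which activates cathepsins. It was at 24.8 to 81.6 RPKM in tomato+ VEC and 148 to 252 RPKM in tomato- VEC, and at 36.1 to 61.2 RPKM in tomato+ cTEC and 16.9 to 44.8 RPKM in tomato- mTEC. Cd74 was at 133 to 272 RPKM in tomato+ VEC and 471 to 1043 RPKM in tomato- VEC, and at 20078 to 22415 RPKM in tomato+ cTEC and 31906 to 40061 RPKM in tomato- mTEC. Only Cd74 of the 13 was called between the endothelial groups, lower in tomato+ VEC (log2 -1.79, edgeR adjusted p = 0.013), where 1.08% of all genes were lower. Between cTEC and mTEC, Prss16, the cortical serine protease of class II processing, rose (log2 5.92, edgeR adjusted p = 3.38e-06), H2-Ob fell (log2 -3.65, edgeR adjusted p = 0.0445) and 11 did not pass. In that contrast 2.73% of all genes were higher and 5.1% lower. Ifi30, the lysosomal thiol reductase, was at 43.9 to 63.1 RPKM in tomato+ cTEC and 127 to 213 RPKM in tomato- mTEC without passing.

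**Figure D4:**
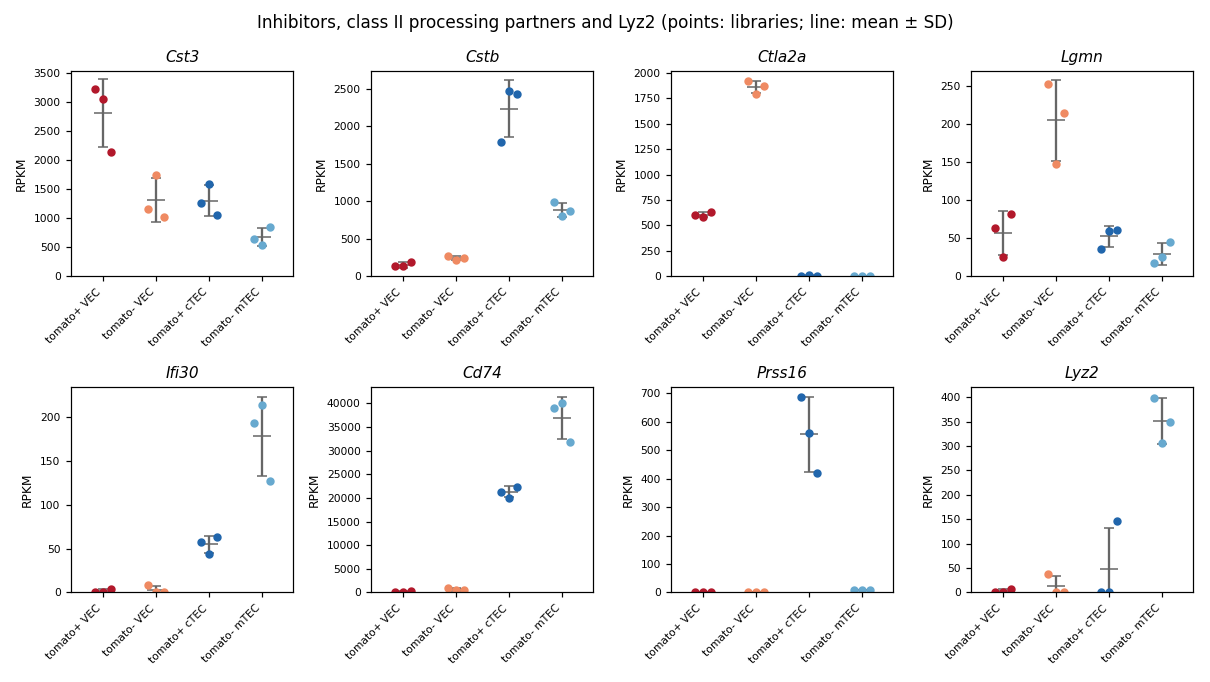
RPKM (linear axes from 0, a scale per gene) of 3 cathepsin inhibitors, 4 class II processing genes and the lysozyme gene Lyz2 in the 4 groups. Points are libraries and lines the mean ± SD of 3. Ctla2a is endothelial, Cd74 and Ifi30 are epithelial, and Lyz2 is highest in tomato- mTEC.

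Of 22 lysosomal hydrolases and activators tested 9 were higher and 4 lower in all VEC than in all TEC, where 14.4% of all genes were higher and 21.8% lower (median log2 1.21, against -0.18 over all genes). Among the 9 were Arsa, the arylsulfatase A gene (log2 4.48, edgeR adjusted p = 2.75e-06), and Hexa, a hexosaminidase subunit (log2 2.58, edgeR adjusted p = 1.31e-05). In tomato+ cTEC relative to tomato- mTEC, Lipa and Asah1, of lipid breakdown, rose (log2 1.86 and 1.41, edgeR adjusted p = 0.0029 and 0.0268) and Gusb, the beta-glucuronidase gene, fell (log2 -2.93, edgeR adjusted p = 0.000562). Of 19 genes of the lysosomal membrane, acidification and enzyme sorting, 2 were higher and 5 lower in all VEC than in all TEC, near the 14.4% and 21.8% of all genes. Cd63 and Atp6v1b2, a proton pump subunit, fell in tomato+ VEC (log2 -1.79 and -2.38, edgeR adjusted p = 0.0496 and 0.0222), and Lamp2, a membrane glycoprotein of lysosomes, rose in tomato+ cTEC (log2 1.17, edgeR adjusted p = 0.0378). Tfeb stood at or under 3.70 RPKM in every library and was not called in any of the 5 main comparisons. Of 6 matrix genes linked to Ctsk, 5 were lower and 1, Sparc, higher in all VEC than in all TEC, against 21.8% and 14.4% of all genes. In the TEC contrast Sparc rose (log2 2.26, edgeR adjusted p = 0.00172) and 5 did not pass, against 7.83% of all genes called, 2.73% higher.

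The members were also compared by their profile over the 12 libraries (Pearson r of log2(RPKM + 1), as a description, since libraries of a group share their cell type). Ctsb and Ctsd had r = 0.89, Ctss and Ctsc 0.85, and Ctss and Ctsk 0.82, whereas Ctsa and Ctsz had r = -0.73. Among 7936 named genes with a mean of at least 5 RPKM, the profile most like Ctsl was that of Txnl1 (r = 0.93). Ctsd was most like Grn (0.97), which encodes the lysosomal protein progranulin, and Myh9 (0.94). Ctsz was most like Lcp1 (0.98), an actin-bundling protein gene of leukocytes, and Med27 (0.96). Ctsb was most like the P-selectin gene Selp (0.96) and Pdia5 (0.95). Ctsh was most like Extl1 (0.96) and the tetraspanin gene Cd82 (0.95). Ctss was most like Poglut1 (0.95) and Stoml1 (0.95), and Ctsc like Guk1 (0.95) and Isyna1 (0.94). Ctsk was most like Gcg (0.90) and Sbp (0.90), both at 0 RPKM outside mTEC. Ctsa was most like Irgm1 (0.95) and Amotl1 (0.93), and Ctso like Mfap2 (0.87) and Kbtbd2 (0.87).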

How the data were processed

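RNA was measured by RNA sequencing in 12 libraries, 3 in each of 4 sorted populations, made with a SMARTer ultra-low input kit, per the labels. Reads were aligned with TopHat2 2.0.10 to mm9, per the submitters' processing notes. For the read counter, the annotation, filters and use of strand, the sources used here give nothing. The authors deposited whole-number counts per gene and RPKM. The deposited RPKM equal the counts divided by the column total and 1 length per gene, so they carry no other scaling.

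Counts were tested with edgeR 4.0.16 (limma 3.58.1, R 4.3.3) by the quasi-likelihood test, with TMM scaling, filterByExpr at a minimum count of 10, all 12 libraries and 1 term per group. P-values were adjusted by Benjamini-Hochberg over 14792 genes, and calls are at an adjusted p under 0.05. Standard errors are the log2 fold change divided by the root of F, and intervals are at 95%. RPKM describe levels and are not corrected by TMM.

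Alternatives were relative log expression scaling, DESeq2 1.42.0, no low-count filter, a replicate block, limma-trend on log2(RPKM + 1), the compared groups alone, and each library left out. The code was tested on simulated data. Total counts were 8388869 to 11807130 per library, and counting error limits genes at a few counts.

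The members and the gene lists were chosen with earlier results of these data known. Genes outside the lists were named by the rule of the 2 highest Pearson r with each member, among genes with a mean of at least 5 RPKM. Some genes are not reported here. Promoter sequences are RefSeq's, GRCm38.p6. Coordinates from it were not joined to mm9.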

Additional observations from a re-analysis of the deposited data

Results flagged for a closer look

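The contrast of tomato+ VEC with tomato- VEC and that of tomato+ cTEC with tomato- mTEC differed for 4 of the 10 cathepsin genes in a test of the difference itself, which called 3.08% of all genes. The TEC contrast also changes the gate, so reporter and gate cannot be told apart. For Ctsl the VEC contrast minus the TEC contrast was log2 -4.48 (SE 0.41, edgeR adjusted p = 0.000286), with tomato+ below tomato- in endothelium and above it in epithelium. For Ctsd it was log2 -2.96 (SE 0.55, edgeR adjusted p = 0.0168), again with opposite signs, of which the TEC one did not pass alone. For Ctsa it was log2 -2.07 (SE 0.32, edgeR adjusted p = 0.00589), from log2 -0.45 in VEC, which did not pass alone, and 1.62 in TEC. For Ctsz it was log2 1.76 (SE 0.43, edgeR adjusted p = 0.0486), lower in the tomato+ group of both pairs and by more in TEC. The Ctsz call held without tomato+ VEC replicate 1 (0.0128) and was lost when any 1 of the other 11 libraries was left out (0.0588 to 0.125).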

How the results depend on the processing

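Of 1419 alternative values of the members' log2 differences, 1243 kept direction and side of the threshold, 124 lost the threshold, 29 gained it and 23 changed sign. None of the 23 belonged to a called value. In the VEC contrast 4 members were called, 2 with the replicate block, 2 with only the 6 compared libraries, and 2 to 4 without 1 library. In the TEC contrast 5 were called, 8 by limma-trend, 8 with only the compared libraries, 4 with the replicate block, which lost Ctsc (edgeR adjusted p = 0.0769), and 4 to 6 without 1 library. The block also lost Ctsb (0.0679) and Ctsd (0.0952) in the VEC contrast, Ctso between all VEC and all TEC (0.0526) and between tomato+ VEC and tomato- mTEC (0.0585), and Ctsz in the difference of contrasts (0.0809). It gained Ctss between tomato- VEC and tomato- mTEC (0.0388) and between all VEC and all TEC (0.0379). Without 1 library, 4 to 6 of 5 were called between tomato+ VEC and tomato+ cTEC, 4 to 7 of 6 between tomato- VEC and tomato- mTEC, 4 to 6 of 6 between all VEC and all TEC, and 3 to 9 of 10 between tomato+ VEC and tomato- mTEC. The number of all genes called in the VEC contrast was 244, 1337 by DESeq2, 484 by limma-trend and 112 with only the compared libraries. In the TEC contrast it was 1158, 2346 by DESeq2, 2293 by limma-trend, 2487 with only the compared libraries and 428 to 1193 without 1 library.

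These uncalled log2 differences changed sign. In the VEC contrast Ctsc was -0.040 with the block, -0.50 by limma-trend and -0.75 to 0.70 without 1 library, and Ctsk -2.13 to 0.27. Between tomato+ VEC and tomato+ cTEC, Ctsk was 0.12 with the block and -0.50 to 0.63 without 1 library, Ctsc -0.22 by limma-trend and -0.27 to 1.18, and Ctss -9.95 to 0.20. Ctsz between tomato- VEC and tomato- mTEC was -0.20 to 0.18, and Ctsa between all VEC and all TEC -0.044 by limma-trend. Between tomato- VEC and tomato+ cTEC, Ctss was -0.017 with the block, -0.26 by limma-trend and -0.091 to 1.34, and Ctsk -0.35 to 2.32. In the difference of contrasts Ctsh was 0.41 by limma-trend, Ctss -5.09 to 5.00 and Ctso -0.12 to 0.64. The cause was not tested.

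The replicate numbers showed at most a weak pairing. Deviations of the 18 same-number pairs correlated at -0.01 to 0.07 (median 0.02), none over 0.1. Those of the 36 different-number pairs correlated at -0.05 to 0.02 (median -0.01), and 8 of 12 libraries correlated best with their own number. Few counts underlie Ctsk outside tomato- mTEC (3 to 70 per library) and Ctsh in tomato+ VEC (3 to 7 per library). Ctsk had 321, 143 and 50 counts in tomato- mTEC. Ctss in tomato+ VEC had 221, 0 and 0 counts, at total counts of 10786569, 8448280 and 10260272, and the cause was not tested.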
